A study of Homo sapiens with 6 samples.

Results

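The RNAs described here are 41 small RNAs of the nucleus. They are the genes named SNORA (box H/ACA small nucleolar RNAs) or SCARNA (small Cajal body RNAs), followed by a number, that had at least 60 reads summed over the 6 libraries of the series. That left 31 of 150 SNORA rows and 10 of 25 SCARNA rows, so 41 of 175 rows among 58395 genes. They were chosen by that summed count, so their abundance is given as a description. The members just inside the limit were SCARNA23 and SCARNA1 with 63 reads each and SCARNA18B with 62. Just outside it were SCARNA18 and SNORA53 with 56 reads each and SNORA46 with 55.

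The libraries came from 6 clonal lines of HEK293, an established line derived from human embryonic kidney. In 3 control lines (2, 8 and 9) the overexpressed protein was GST-3F, a tagged glutathione S-transferase, and in 3 lines (4, 11 and 12) it was NOCT ∆(2-15)-3F, a tagged form of nocturnin. Nocturnin is a relative of the CCR4 deadenylases that acts on NADP cofactors. Every line is 1 clone grown for 3 days under the same conditions, so all 6 carry a tagged transgene and the spread within a group is a spread between clones. The promoter of the transgene is not given in the sources used here. Total RNA was depleted of ribosomal RNA and read in 50 bp strand-specific reads.

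Gene counts were 19729745 to 21420849 in the GST lines and 20124376 to 24422406 in the NOCT lines, and the members together took 0.0150% to 0.0187% of them. The GST construct had 46 to 88 reads in the GST lines and at most 1 in a NOCT line. The NOCT construct had 46 to 82 reads in the NOCT lines and 3 to 7 in the GST lines. Among genes typical of HEK293, VIM stood at 678 to 1425 CPM (the reads of a gene scaled to the size of the library), and NEFL and INA were above 11 CPM in every line. NEFM had only 4 to 9 reads in 5 of the lines, at 0.196 to 0.353 CPM, and 6.87 CPM in NOCT line 12. PAX2 had 3.85 to 5.69 CPM in the GST lines and 0.746 to 1.30 CPM in the NOCT lines. Markers of other cell types, 10 in all, stayed at or below 0.301 CPM.

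Box H/ACA RNAs fold into hairpins joined by a hinge that holds the H box (AnAnnA), and end in an ACA triplet a few bases before the 3′ end. Each assembles with the pseudouridine synthase dyskerin (DKC1) and the proteins NHP2, NOP10 and GAR1. The small nucleolar members pair with ribosomal RNA and direct the change of chosen uridines to pseudouridine, and a few take part in cleaving the ribosomal RNA precursor. Small Cajal body RNAs of the H/ACA class act in the same way on the spliceosomal small nuclear RNAs. Most human members are cut from introns of other genes, called hosts, and trimmed at their ends. Box C/D RNAs, a separate class that includes the SNORD genes, carry the C box (RTGATGA, where R is a purine) and the D box (CTGA) and direct ribose methylation.

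Many of the members' sequences show the marks of the class, and those printed here hold both. They are given from the GENCODE release 29 transcripts on GRCh38, 5′ to 3′ on the strand of the gene, for some of the RNAs on which the results turn. Capitals mark an AnAnnA match with at least 5 bases unpaired in the predicted minimum-energy fold, and the ACA that is followed by 3 bases. The AnAnnA match was marked only where it was the single one of that kind in the middle part of the sequence. SNORA28 and SNORA33, which are not printed, had no ACA exactly 3 bases before the end, though each held an ACA within the last 10 bases. SNORA12, also not printed, had no single AnAnnA match of that kind. SCARNA21 (chr17:7906122-7906260, plus strand, intron of CHD3) was the most abundant member with both marks. SNORA75 (chr2:231455800-231455936, minus strand, intron of NCL) varied most between lines relative to counting error. SNORA80B (chr2:10446714-10446849, minus strand, intron of ODC1) and SNORA5C (chr7:45104906-45105042, minus strand, intron of TBRG4) were the 2 members whose groups did not overlap. SNORA80D (chr7:6016877-6017011, plus strand, intron of AIMP2) is a close relative of SNORA80B.
SCARNA21: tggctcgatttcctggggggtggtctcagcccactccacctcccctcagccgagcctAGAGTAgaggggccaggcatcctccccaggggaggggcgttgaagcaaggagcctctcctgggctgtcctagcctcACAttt
SNORA75: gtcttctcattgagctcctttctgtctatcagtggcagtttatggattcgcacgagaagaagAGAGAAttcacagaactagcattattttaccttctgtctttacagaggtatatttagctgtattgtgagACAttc
SNORA80B: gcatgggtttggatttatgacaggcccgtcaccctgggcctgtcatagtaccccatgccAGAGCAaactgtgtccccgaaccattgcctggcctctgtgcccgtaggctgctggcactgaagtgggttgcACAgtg
SNORA80D: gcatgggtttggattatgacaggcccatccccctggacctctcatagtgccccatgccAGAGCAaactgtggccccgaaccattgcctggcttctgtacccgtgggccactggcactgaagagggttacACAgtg
SNORA5C: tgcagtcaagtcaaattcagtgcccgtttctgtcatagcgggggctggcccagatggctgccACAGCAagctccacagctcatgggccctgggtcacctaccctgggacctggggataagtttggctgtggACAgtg

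SNORA80B and SNORA80D were identical at 89.7% of aligned positions and held the same H box letters, AGAGCA. They shared no run of 50 bases with each other or with any other gene, so a 50 bp read without mismatches tells them apart. Of the 41 members, 28 (68.3%) had the ACA exactly 3 bases before their annotated end, 22 of 31 SNORA and 6 of 10 SCARNA. Among all GENCODE transcripts of 120 to 150 bases it was 21.4%. That set includes the H/ACA RNAs themselves, so it is not a rate for other short transcripts. Among the 31 SNORD genes with at least 60 reads it was 3.23%. An ACA anywhere in the last 10 bases was found in 35 of the 41 members (28 SNORA and 7 SCARNA) and in 4 of these SNORD genes. The lengths ran from 126 to 330 bases with a median of 135, against a median of 88 for those SNORD genes.

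The label H/ACA did not cover every member. SCARNA7, SCARNA5 and SCARNA6 held a C box match beginning at base 6 and a D box match near the 3′ end, and no ACA 3 bases before it. SCARNA7 is a box C/D RNA by textbook knowledge, and SCARNA5 and SCARNA6 carry both kinds of domain. Their first and last 30 bases follow, with the C box and D box matches in capitals, because SCARNA7 is the most abundant member of all.
SCARNA7, bases 1 to 30: tggaaATGATGAaatagagataattgggtg
SCARNA7, bases 301 to 330: tcattaaaatggtcctgtgatCTGAtccaa
SCARNA5, bases 1 to 30: ggtcgATGATGAttggtaaaaggtctgatt
SCARNA5, bases 247 to 276: tgcatgatctcaagttttcaatCTGAgacc
SCARNA6, bases 1 to 30: ggtcaATGATGAatggtaaaaggtctgagt
SCARNA6, bases 236 to 265: gctatgatctgccttgttcaagCTGAgacc

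These 3 RNAs stay in all counts of members below, since the rule goes by symbol. Without them, 0 of 37 members tested passed the threshold and the median log2 fold change was −0.24, against −0.22 with them.

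Where a small RNA lies in the genome went with whether it was counted at all. All 48 rows that lie wholly inside an exon of another gene on the same strand had 0 reads in every library. These include well-known RNAs such as SCARNA2, SNORA73A in SNHG3 and SNORA62 in RPSA. Of the 102 rows inside an intron only 10 had 0 reads, and 40 of the 41 members lay there. SNORA11F, with 151 reads, was the only intergenic member. Of the 41 members, 38 had no 50-base stretch that occurs in an annotated transcript of another gene. An RNA at 0 in these tables is therefore a row to which no read was assigned, not one shown to be missing from the cells. TERC, the telomerase RNA, which also ends in an H/ACA domain, had 1 read in all, in GST line 9.

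**Figure D1:**
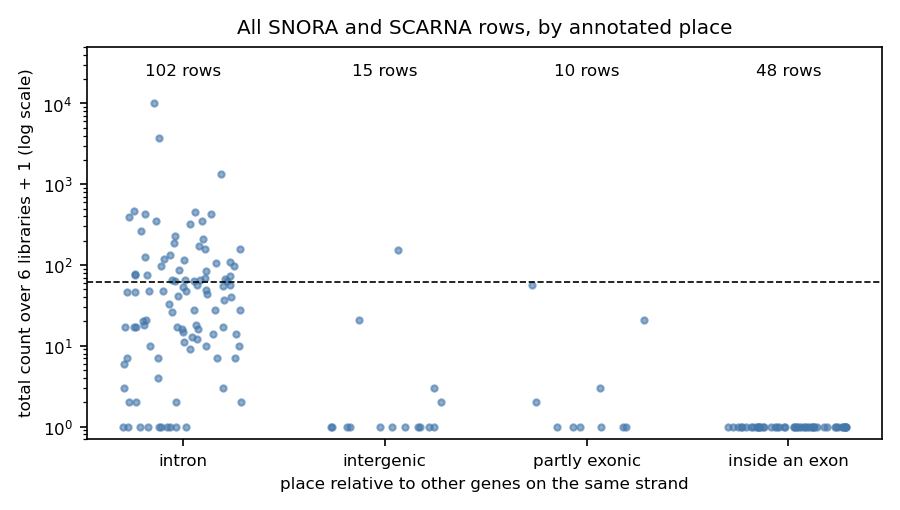
Reads summed over the 6 libraries for each of the 175 SNORA and SCARNA rows (one point per row, count plus 1 on a log axis), by the place of the row in GENCODE release 29 relative to other genes on its strand. The dashed line marks the limit of 60 reads. All 48 rows inside an exon sit at 0, and 40 of the 41 rows above the limit lie in introns.

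The 40 intronic members lay in 34 host genes on the same strand, of which SNHG17, SNHG4, ATG16L1 and KANSL2 held more than 1. For 29 of the 40 members the host was protein coding, among them the ribosomal protein genes RPS12, RPL12, RPL5, RPL27A and RPL30 and the translation factor genes EIF5 and EIF3A. Reads from an intron that has not been removed are assigned to the small RNA that lies in it, so the values are the sum of finished RNA and host intron over the same bases. The ratio of member to host differed widely. SCARNA7 collected 918 to 1100 reads per 1000 reads of the exons of its host KPNA4, an importin gene, in the 6 lines. SNORA80B had 1.35 to 3.28 reads per 1000 reads of its host ODC1, the ornithine decarboxylase gene.

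Among the members, reads were concentrated in a few of the Cajal body RNAs. SCARNA7, SCARNA21 and SCARNA13 held 69.5% of all member reads, and SCARNA7 alone 46.3%. The other SCARNA members had only 62 to 123 reads each. SCARNA7 was measured at 73.6, 81.6 and 81.7 CPM in GST lines 2, 8 and 9 and at 77.0, 76.7 and 75.5 CPM in NOCT lines 4, 11 and 12. The 6 lines were close to each other and the groups overlapped, with a highest line only 1.11 times the lowest. SCARNA21 was measured at 26.1, 30.9 and 35.4 CPM in GST lines 2, 8 and 9 and at 26.9, 23.5 and 30.4 CPM in NOCT lines 4, 11 and 12. GST line 9 was highest, NOCT line 11 lowest, and the groups overlapped. SCARNA13, known as U93, stood at 10.0, 8.02 and 8.84 CPM in GST lines 2, 8 and 9 and at 14.3, 10.3 and 9.43 CPM in NOCT lines 4, 11 and 12. NOCT line 4 was highest and the groups overlapped in NOCT line 12.

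On the TPM scale, which divides by gene length, SCARNA7 had a mean level of 678 ± 47.2 TPM and SCARNA21 of 597 ± 81.0 TPM (SD, n = 6 lines). SCARNA7 was the higher of the pair in 5 of the 6 lines, all but GST line 9. SCARNA13 followed at 107 ± 28.1 TPM. The highest mean among the SNORA members was 77.2 ± 28.9 TPM, for SNORA28 in the translation factor gene EIF5. SNORA33 (74.7 ± 12.9 TPM), SNORA12 (71.4 ± 11.5 TPM), SNORA14B (65.5 ± 19.2 TPM) and SNORA75 (58.5 ± 41.0 TPM) came next, each within the spread of its neighbour. The lowest mean, 7.50 TPM, was that of SNORA74A.

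**Figure D2:**
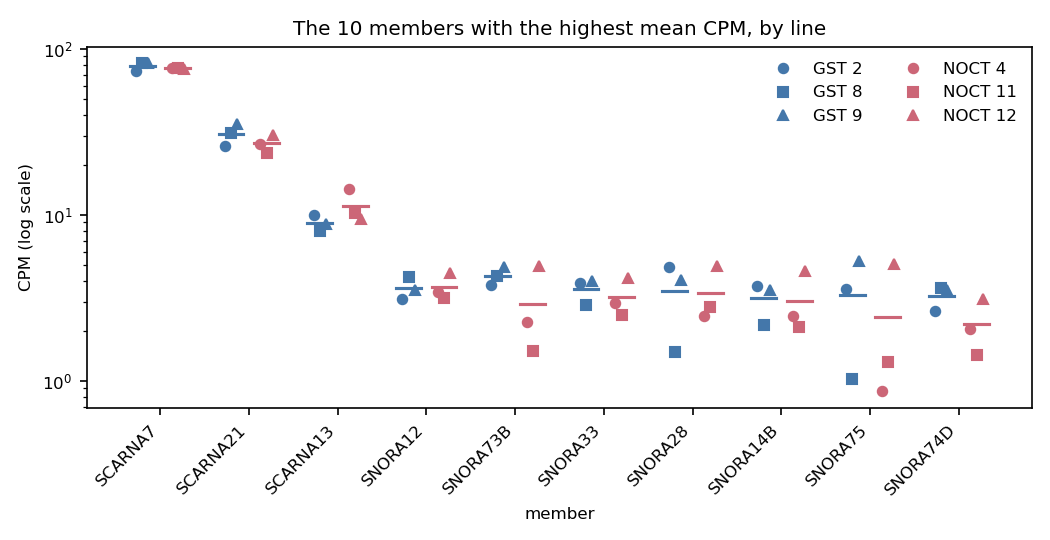
CPM (log axis) of the 10 members with the highest mean, with 1 symbol per line, GST lines in blue, NOCT lines in red and group means as short bars. SCARNA7 lies between 73.6 and 81.7 CPM in all 6 lines, while SNORA75 spreads from 0.864 to 5.25 CPM.

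Most members were near the limit of what this depth can resolve. The median member had 123 reads over 6 libraries, 16 had fewer than 100, and 21 had a mean below 1 CPM. For 28 members the highest line exceeded the lowest by more than 2-fold. Counting error alone gives part of this: the SD of log2 CPM over the 6 lines was below the SD that counting gives for 6 members, and above 2 times that for 11.

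Among the well-counted members the lines differed most for SNORA75, known as U23, which is cut from an intron of the nucleolin gene NCL. It had 68, 22 and 107 reads in GST lines 2, 8 and 9 and 22, 29 and 101 in NOCT lines 4, 11 and 12. Its level was 3.58, 1.02 and 5.25 CPM in the GST lines and 0.864, 1.30 and 5.06 CPM in the NOCT lines, in the same order. Both groups thus held low and high lines, with a 6.08-fold range and an SD of log2 CPM of 1.20 against 0.24 from counting. The host NCL ranged only from 509 to 825 CPM, and SNORA75 per 1000 NCL reads was 4.93, 1.496 and 6.37 in the GST lines and 1.70, 2.19 and 6.14 in the NOCT lines. The order of the lines was thus similar with and without division by the host.

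SNORA73B (U17b), which takes part in cleaving the ribosomal RNA precursor and lies in SNHG3, was measured at 3.80, 4.27 and 4.86 CPM in GST lines 2, 8 and 9 and at 2.28, 1.52 and 4.91 CPM in NOCT lines 4, 11 and 12. NOCT lines 4 and 11 were below every GST line, and NOCT line 12 was above them. SNHG3 itself had 66.5, 72.0 and 79.0 CPM in the GST lines and 40.9, 51.5 and 91.6 CPM in the NOCT lines, with the same 2 lines low and the same line high. SNORA74D, in SNHG4, had 2.64, 3.62 and 3.54 CPM in the GST lines and 2.04, 1.43 and 3.11 CPM in the NOCT lines. Its host SNHG4 had 15.2, 22.1 and 20.1 CPM in the GST lines and 8.32, 8.24 and 20.3 CPM in the NOCT lines.

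SNORA28 stood at 4.85, 1.48 and 4.03 CPM in GST lines 2, 8 and 9 and at 2.47, 2.78 and 4.91 CPM in NOCT lines 4, 11 and 12. The low line here was GST line 8. SNORA14B, in the mitochondrial import receptor gene TOMM20, had 3.74, 2.18 and 3.54 CPM in the GST lines and 2.47, 2.11 and 4.56 CPM in the NOCT lines. SNORA33, in RPS12, had 3.90, 2.88 and 3.98 CPM in the GST lines and 2.94, 2.51 and 4.16 CPM in the NOCT lines. In these 3 RNAs NOCT line 12 was the highest line and the groups overlapped. SNORA12, in CWF19L1, was steadier, with 3.11, 4.22 and 3.54 CPM in the GST lines and 3.41, 3.14 and 4.46 CPM in the NOCT lines.

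**Figure D3:**
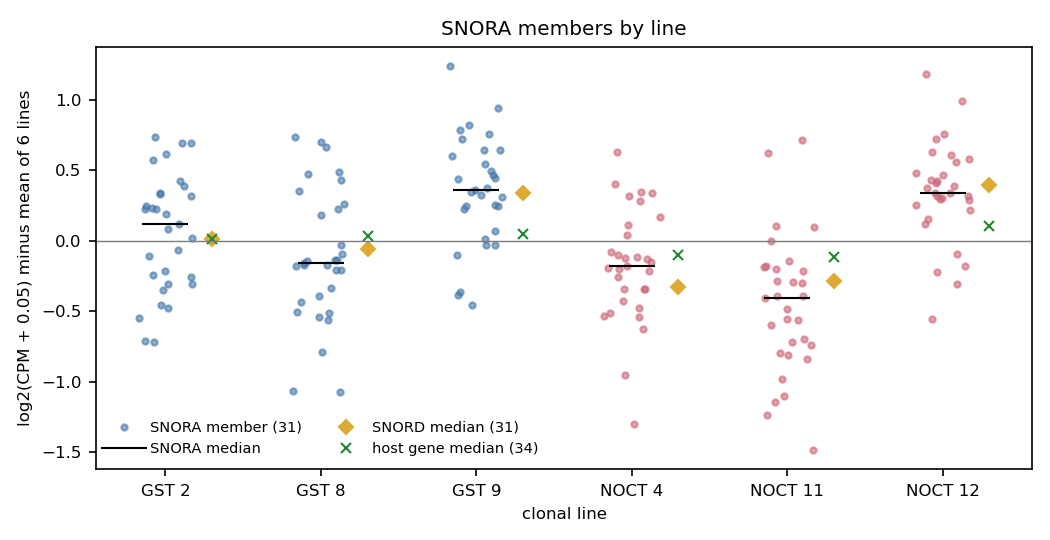
Deviation of each line from the 6-line mean, as log2(CPM + 0.05), for the 31 SNORA members (points) with their median (bar), beside the medians of 31 SNORD genes (diamonds) and of 34 host genes (crosses). The SNORA medians are 0.36 in GST line 9 and 0.34 in NOCT line 12 but −0.40 in NOCT line 11.

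The same lines were high or low for many SNORA members. The median deviation from the 6-line mean over the 31 SNORA members, on the log2(CPM + 0.05) scale, was 0.12, −0.16 and 0.36 in GST lines 2, 8 and 9 and −0.18, −0.40 and 0.34 in NOCT lines 4, 11 and 12. NOCT line 12 was above NOCT line 11 for 28 of 31 SNORA members, against 50.3% of all genes tested. GST line 9 was above GST line 8 for 23 of 31, against 49.8% of all genes tested. The highest line was GST line 9 or NOCT line 12 for 22 of 31, against 31.5% of all genes tested. These lines were picked from the medians of the same members, so the counts describe the pattern and add no support to it. Each group held lines with medians above 0 and below it.

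The SCARNA members did not show the same order, though GST line 9 had the highest median here too. Their medians were −0.04, 0.09 and 0.26 in GST lines 2, 8 and 9 and −0.30, −0.05 and −0.06 in NOCT lines 4, 11 and 12. GST line 9 was above GST line 8 for 7 of 10 SCARNA members, and NOCT line 12 above NOCT line 11 for 5 of 10. Among other small RNA genes with at least 60 reads, NOCT line 12 was high. The 31 SNORD genes had medians of 0.01, −0.06 and 0.34 in GST lines 2, 8 and 9 and −0.33, −0.29 and 0.40 in NOCT lines 4, 11 and 12. For 50 small nuclear RNA genes the medians were 0.21, −0.02 and 0.08 in the GST lines and −0.17, −0.21 and 0.36 in the NOCT lines, with GST line 2 and not line 9 the high control. The 34 hosts moved less, with 0.01, 0.03 and 0.04 in the GST lines and −0.10, −0.11 and 0.10 in the NOCT lines. Reads outside any feature made up 30.6%, 27.8% and 26.5% of the reads in GST lines 2, 8 and 9 and 26.7%, 27.8% and 28.3% in NOCT lines 4, 11 and 12, and their part in the line pattern was not tested. RNA integrity values lay between 9.6 and 10.0 per the labels' protocols and are not tied to single lines there. In libraries from whole cultures, fewer cells with an RNA and less of it per cell cannot be told apart.

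No member passed the test between the NOCT and GST lines. At an adjusted p of 0.05 (quasi-likelihood test of edgeR, Benjamini-Hochberg over 17261 genes), 0 of the 40 members tested passed, against 0.0579% of all genes tested. Limma voom called 0 as well, and DESeq2 called 0 of the 20 members to which it gave an adjusted p, leaving 20 without one. At an unadjusted p of 0.05, 1 of 40 passed, SNORA80B with a lower level, against 13.9% of all genes in either direction (6.52% lower and 7.38% higher). The groups did not overlap for 2 of 40 members, SNORA80B lower and SNORA5C higher, against 20.0% of all genes tested (9.54% lower and 10.5% higher). Both shares are below the background, and the members' standard errors were larger, with a median of 0.39 on the log2 scale against 0.19 for all genes. Genes with 62 to 700 reads, the counts of most members, had a median standard error of 0.36. Of them, 9.73% passed an unadjusted p of 0.05 and 15.4% had groups without overlap. SCARNA23 was too low for the test. In simulated data with 1 common spread for every gene, the fit recovered 67% of 2-fold and 99% of 4-fold changes. The changed genes all had a mean of at least 1 CPM. Since 21 of the 41 members lie below that mean, these shares do not give the recovery for them.

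The fold changes leaned to lower levels in the NOCT lines without passing the test. Of the 40, 32 lay below 0 (80%, against 49.3% of all genes tested and 74.2% of the 31 SNORD genes). The median was −0.22 against 0.00464 over all genes. The range was −1.32 to 0.57. The median was −0.24 for the 31 SNORA members and −0.19 for the 9 SCARNA members tested, and −0.16 for the 31 SNORD genes. Single lines weighed on it: the median ran from −0.41 without NOCT line 12 to −0.08 without GST line 9. With the summed spike-in reads as library sizes it was −0.07, while the median of all genes moved to 0.15. The summed level of the 41 members was 165, 168 and 190 CPM in GST lines 2, 8 and 9 and 161, 148 and 180 CPM in NOCT lines 4, 11 and 12, so the groups overlapped.

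**Figure D4:**
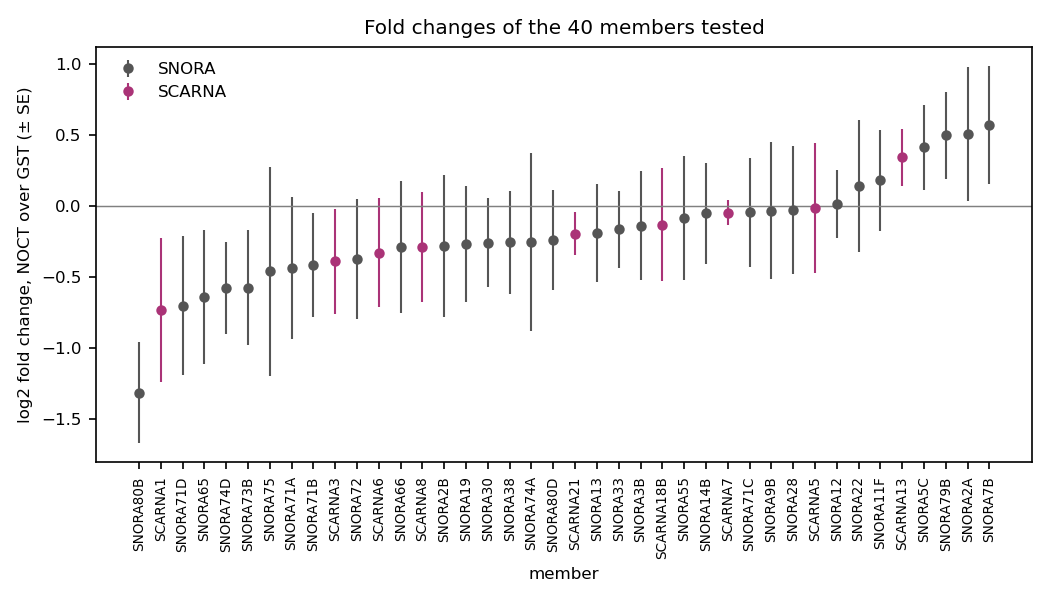
Log2 fold change (NOCT over GST lines, edgeR) of the 40 members tested ordered from lowest to highest; bars are 1 standard error, and SNORA and SCARNA members are coloured apart. The values run from −1.32 for SNORA80B to 0.57 for SNORA7B, with 32 below 0.

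SNORA80B had the lowest fold change. It had 14, 16 and 22 reads in GST lines 2, 8 and 9 and 9, 7 and 7 reads in NOCT lines 4, 11 and 12, or 0.738, 0.742 and 1.08 CPM against 0.353, 0.314 and 0.351 CPM. Every NOCT line was below every GST line. In edgeR this came to −1.32 ± 0.35 (log2, SE; unadjusted p = 0.00576, adjusted p = 0.196), and over the alternatives other than DESeq2, which gave none, the adjusted p ran from 0.0816 to 0.589. The host ODC1, the first enzyme of polyamine synthesis, was at 253, 295 and 330 CPM in the GST lines and 207, 232 and 184 CPM in the NOCT lines. It too did not overlap between groups, at −0.50 ± 0.13 (log2, SE; edgeR unadjusted p = 0.00475, adjusted p = 0.193). Per 1000 ODC1 reads, SNORA80B was 2.92, 2.52 and 3.28 in the GST lines and 1.71, 1.35 and 1.91 in the NOCT lines, still without overlap.

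The median level of genes around ODC1 was also lower in the NOCT lines, though in NOCT line 11 it was close to that in GST line 2. The part of these genes in the result was not tested beyond the offset below. The median deviation of the nearest tested genes, up to 50 on each side, was 0.12, 0.20 and 0.19 in GST lines 2, 8 and 9 and −0.33, 0.09 and −0.33 in NOCT lines 4, 11 and 12 on the log2 scale. With that local level as an offset, in edgeR, the log2 fold change of SNORA80B was −0.96 (adjusted p = 0.295). Its relative SNORA80D, in AIMP2, stood at 1.21, 1.86 and 1.33 CPM in the GST lines and 1.14, 0.851 and 1.76 CPM in the NOCT lines, which gave −0.24 ± 0.35 (log2, SE; edgeR adjusted p = 0.793). The difference between the relatives was not tested.

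SNORA5C, in an intron of TBRG4, had 12, 15 and 15 reads in GST lines 2, 8 and 9 and 22, 19 and 21 in NOCT lines 4, 11 and 12. Its levels of 0.633 to 0.736 CPM in the GST lines lay below those of 0.851 to 1.05 CPM in the NOCT lines. The log2 fold change of 0.41 ± 0.30 (SE) did not pass (edgeR adjusted p = 0.574), and the spread over the 6 lines, 0.26 on the log2 scale, was under the 0.35 that counting gives. SNORA80B and SNORA5C have means under 1 CPM and were singled out after their values were seen.

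**Figure D5:**
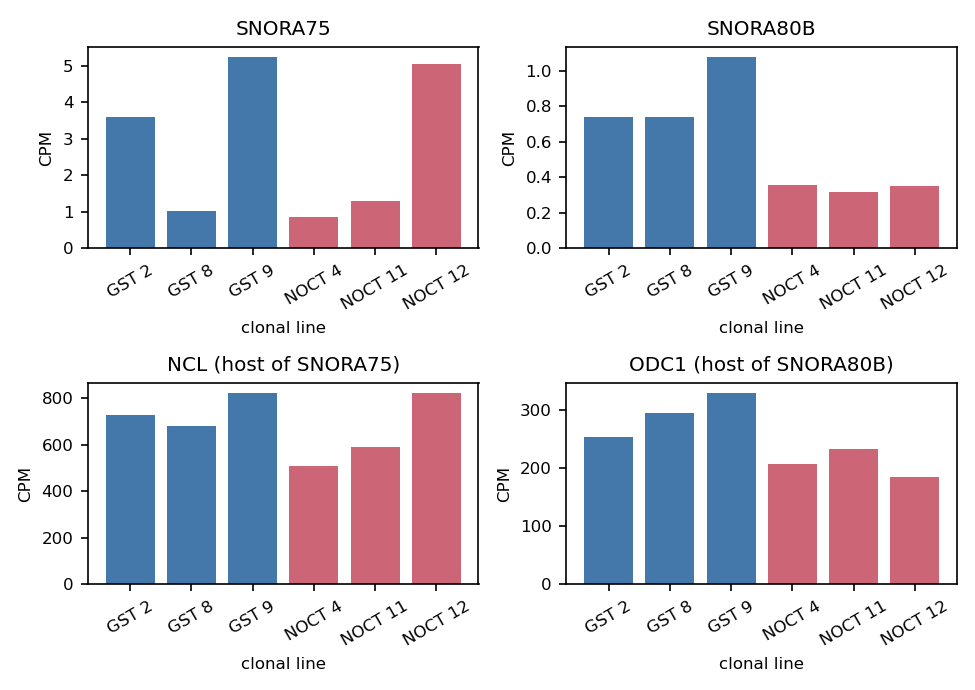
CPM of SNORA75 and SNORA80B (top) and of their hosts NCL and ODC1 (bottom) in each of the 6 lines, as bars from 0 with GST lines in blue and NOCT lines in red. SNORA80B and ODC1 are lower in all 3 NOCT lines, and SNORA75 differs 6.08-fold between lines while NCL runs from 509 to 825 CPM.

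Of the Cajal body RNAs, SCARNA7 had the best determined fold change, −0.05 ± 0.09 (SE, edgeR adjusted p = 0.840). SCARNA21 was at −0.19 ± 0.15 (edgeR adjusted p = 0.604), and its host CHD3, a chromatin remodeller, at −0.31 (unadjusted p = 0.0410). SCARNA13 was the only SCARNA member above 0, at 0.34 ± 0.20 (edgeR adjusted p = 0.490), and its host SNHG10 was at 0.44 (unadjusted p = 0.0268). With the level of neighbouring genes as an offset SCARNA13 was at 0.11. Of the 34 hosts, 4 (11.8%) had an unadjusted p under 0.05, against 13.9% of all genes tested: ODC1, CHD3, SNHG10 and RPL12, the host of SNORA65, at −0.35. None passed after adjustment.

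The remaining SCARNA members had 62 to 123 reads. SCARNA8 (U92) stood at −0.29 ± 0.39, SCARNA3 at −0.39 ± 0.37 and SCARNA18B at −0.13 ± 0.40 (log2 fold change and SE). SCARNA1, which pairs with the U2 small nuclear RNA, was lowest at −0.73 ± 0.51, with 17, 15 and 6 reads in GST lines 2, 8 and 9 and 6, 9 and 10 in NOCT lines 4, 11 and 12. SCARNA5 and SCARNA6 lie in the same host, the autophagy gene ATG16L1, and are identical at 63.6% of aligned positions. Their fold changes were −0.02 ± 0.46 and −0.33 ± 0.39. None of these 6 passed the test, and their groups overlapped. SCARNA23, in the DNA polymerase gene POLA1, had 12, 9 and 14 reads in the GST lines and 9, 10 and 9 in the NOCT lines.

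Among the abundant SNORA members, SNORA73B and SNORA74D had the lowest values at −0.58 ± 0.40 and −0.58 ± 0.32 (log2, SE), with edgeR adjusted p of 0.564 and 0.463. Leaving out NOCT line 12 took SNORA73B to −1.18 with an adjusted p of 0.0486, the one call of a member in any setting run. Then 7 of 41 members had an unadjusted p under 0.05, against 23.2% of all genes in that fit. SNORA75 was at −0.46 ± 0.74, SNORA33 at −0.16 ± 0.27, SNORA14B at −0.05 ± 0.36, SNORA28 at −0.03 ± 0.45 and SNORA12 at 0.02 ± 0.24. The 4 copies in SNHG17, SNORA71A to SNORA71D, were at −0.44, −0.42, −0.04 and −0.70, with edgeR adjusted p of 0.733, 0.652, 0.974 and 0.560, and SNHG17 at −0.20. SNORA71A, SNORA71C and SNORA71D are 83.1% to 86.6% identical, and none of the 4 shares a 50-base stretch with an annotated transcript of another gene.

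Of the 8 members above 0, the highest was SNORA7B at 0.57 ± 0.42 (log2, SE; edgeR adjusted p = 0.579), with 5, 9 and 10 reads in GST lines 2, 8 and 9 and 19, 9 and 12 in NOCT lines 4, 11 and 12. The groups overlapped. Its values are uncertain, since SNORA7B is 98.6% identical to SNORA7A, which lies inside an exon of RPL32 and had 0 reads. SNORA73B is likewise 93.2% identical to SNORA73A, though only 5 of its 50-base stretches occur in annotated transcripts of other genes. SNORA2A stood at 0.51 ± 0.47 and SNORA2B, from another intron of the same host KANSL2, at −0.28 ± 0.50 (log2, SE); they are 76.1% identical and their difference was not tested. SNORA79B, in CCNB1IP1, was at 0.50 ± 0.30, with 1.85, 1.67 and 1.47 CPM in the GST lines and 2.47, 3.00 and 1.55 CPM in the NOCT lines. NOCT lines 4 and 11 were above every GST line and NOCT line 12 was not. SNORA11F and SNORA22 were at 0.18 ± 0.35 and 0.14 ± 0.46. The values of SNORA22 are uncertain too, since 37 of its 85 stretches of 50 bases occur in annotated transcripts of other genes. The SNORA members below 0 that are not named with a value above ran from −0.64 ± 0.47 for SNORA65, in RPL12, to −0.03 ± 0.48 for SNORA9B, in the helicase gene DDX55, and the groups overlapped for each.

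No gene passed the test among those for proteins that build and trim these RNAs. In 4 lists of 36 genes, covering the core proteins, assembly factors, Cajal body proteins and end-processing or decay enzymes, 0 of 36 had an adjusted p under 0.05 by edgeR, and the median log2 fold change was 0.01. At an unadjusted p of 0.05, 1 was higher and 1 lower, against 7.38% and 6.52% of all genes tested. Of the core proteins DKC1 was at −0.04, NHP2 at −0.08 and NOP10 at −0.10. GAR1, whose level was 8.84 to 10.4 CPM in the GST lines and 6.45 to 8.07 CPM in the NOCT lines without overlap (as for 20.0% of all genes), was at −0.38 (edgeR adjusted p = 0.378). The higher gene was ZPR1, a zinc finger protein found in Cajal bodies, at 0.33 (unadjusted p = 0.0159, adjusted p = 0.249). The lower was PAPD7, a non-canonical poly(A) polymerase, at −0.25 (unadjusted p = 0.0216, adjusted p = 0.270). PARN, which trims H/ACA RNA ends, was at −0.06, and coilin (COIL), the scaffold of the Cajal body, at 0.12.

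In the authors' deposited table of the same comparison, with shrunken fold changes, 0 of the 41 members had an adjusted p under 0.05, against 2.87% of the rows with such a value, and 2 had no adjusted p. Of the 41 fold changes in the authors' deposited table, 33 lay below 0, with a median of −0.10. SNORA80B, at −0.48 (p = 0.0330, adjusted p = 0.297), was the 1 member with a p under 0.05 in the authors' deposited table.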

How the data were processed

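The counts are whole reads per gene and library, deposited by the authors. Per the submitters' processing notes, GRCh38, cutadapt 1.8.1, Trimmomatic 0.33, STAR 2.5.2b, HTSeq 0.6.1p1 and DESeq2 1.16.1 were used; the annotation release is not given in the sources used here. The authors' deposited TPM table holds the same reads with 1 length per gene, and 49 of its rows are repeats. The authors' deposited comparison gives a mean signal per row, log2 fold changes, a test score and p-values.

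Rows without a gene, spike-ins and constructs were left out of library sizes. edgeR 4.0.16 (R 4.3.3) fitted all genes: filterByExpr, TMM scaling, quasi-likelihood test, Benjamini-Hochberg adjustment over 17261 genes, threshold 0.05. CPM is TMM-scaled. Standard errors come from the F statistic, and counting SDs of log2 CPM from the reads. P-values set the difference between the groups against the spread between clones. With a single library per clone, variation between clones and between libraries cannot be told apart. The fit was tested on simulated data. Alternatives were DESeq2 1.42.0, limma voom (limma 3.58.1), limma on log2(TPM + 1) and log2(TPM + 0.1), other scalings and filters, a neighbour offset (neighbours with a mean of at least 1 CPM), and leaving out each line. Places, hosts and sequences came from GENCODE release 29, matched for 58275 of 58395 genes, and folds from ViennaRNA 2.7.2; identities were computed with Biopython 1.88.

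Members and lists were chosen with earlier results of these data known. Members named by rule were the 10 highest by CPM, the 5 highest by TPM, any past the threshold, those with extreme fold changes and groups without overlap at 1 CPM or more (none), those varying most or least at 5 CPM or more, every SCARNA tested and the 3 on each side of 60 reads. Proteins named were the core and those with an unadjusted p under 0.05. Other genes were named for their sequence, host or values after these were seen.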

Additional observations from a re-analysis of the deposited data

How the results depend on the processing

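No paired analysis was possible because the lines of the groups share no replicate number. The count of members past an adjusted p of 0.05 was 0 in every setting except the fit without NOCT line 12 (leaving out 1 line gave 0 to 1). Members with an unadjusted p under 0.05 numbered 1, and 2 with limma on log2(TPM + 1), limma on log2(TPM + 0.1) and spike-in library sizes, where 14.2%, 13.96% and 20.4% of all genes did. Leaving out 1 line gave 1 to 7, the 7 without NOCT line 12, where 23.2% of all genes did; the members' share was below that of all genes in each of these 4 fits. The median fold change stayed below 0 in all settings. The log2 ratio of the mean summed level was −0.10, and 0.049 with spike-in totals. Of 270 values for 18 named members, 31 changed sign, 11 of them with spike-in totals or on the TPM scales, which move the median of all genes from 0.005 to 0.15 and to 0.07 or 0.08. SCARNA7 was at 0.041 on both TPM scales and 0.10 with spike-ins. SNORA12 was at −0.0015 with voom and −0.15 to 0.13 leaving out 1 line. SNORA28 was at 0.16 on both TPM scales, 0.068 with voom, 0.11 with spike-ins and −0.40 to 0.29 leaving out 1 line. SNORA14B was at 0.087 with spike-ins and −0.46 to 0.15 leaving out 1 line. SNORA75 ran from −1.60 to 0.060 leaving out 1 line. SCARNA5 was at 0.24 with log2(TPM + 0.1), 0.20 with log2(TPM + 1), 0.13 with voom, 0.18 with the neighbour offset, 0.14 with spike-ins and −0.38 to 0.38 leaving out 1 line. SCARNA18B was at 0.013 with spike-ins and −0.43 to 0.10 leaving out 1 line. For the other 20 the cause was not tested. None of these members passed the threshold in any of these settings. Depth limits most members: a median of 123 reads in all leaves a median standard error of 0.39 on the log2 scale.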
